A study of Mus musculus with 7 samples.

Results

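The ephrin ligand genes are 8 genes, Efna1 to Efna5 and Efnb1 to Efnb3, and all 8 had a row among the 23420 gene rows of a bulk RNA sequencing table from mouse heart. They were found by exact match of the gene symbol. The 7 libraries came from cardiac ventricle of untreated mice aged 3 to 6 weeks, although the tissue is also labelled as whole heart. The 4 control libraries had the genotype Ctla4+/+;Pdcd1-/- and the 3 with myocarditis, a model of heart inflammation under immune checkpoint inhibitors (ICI), had the genotype Ctla4+/-;Pdcd1-/-. All 7 thus carried the Pdcd1 deletion, which removes the T cell receptor PD-1, and the groups differed in 1 copy of Ctla4, which encodes another inhibitory T cell receptor. No mouse with intact Pdcd1 was analysed here, and none had received a drug. Nothing in the labels says that each library is a separate animal, so p-values measure only the spread between these libraries, which may be technical. The family was chosen by symbol but selected on the measured difference between these groups, which was already known, in particular the low normalized counts of Efnb3 in ICI-myocarditis. The values of the ligand genes are therefore given as a description, without p-values.

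Ephrins are ligands fixed to the cell surface that bind Eph receptor tyrosine kinases on a neighbouring cell. Ephrin-A proteins are held by a lipid anchor and mostly bind EphA receptors, whereas ephrin-B proteins cross the membrane, mostly bind EphB receptors and can themselves signal into the cell that carries them. In the cardiovascular system the pair of ephrin-B2 on arterial and EphB4 on venous endothelium is the best known.

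Values are normalized counts, meaning reads per gene divided by 1 size factor per library. Libraries held between 20931730 and 39037176 reads assigned to genes. On the first principal component, which held 68.6% of the variance, control 2 scored 2.25, between the other controls (-96.7 to -61.2) and the ICI-myocarditis libraries (58.9 to 105). Reads of Pdcd1 were counted in every library, at 2.50 to 244 normalized counts in controls and 1096 to 1481 in ICI-myocarditis, so a count over the whole gene did not check that genotype. Ctla4 had 29.2 to 113 in controls and 251 to 373 in ICI-myocarditis. The cardiomyocyte genes were present in every library, and of 4 atrial genes Myl4, Myl7 and Sln lay at no more than 72.6, 48.0 and 3.70 normalized counts. The fourth, Nppa, which diseased ventricle also makes, rose from 6265 to 8778 in controls to between 38489 and 174572 in ICI-myocarditis (adjusted p = 0.00316 by limma). Bulk values cannot tell fewer cells of a type from less RNA per cell.

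Summed over the family and divided by exon length, ephrin ligand RNA in ICI-myocarditis was less than in any control. The 8 genes together reached 2203, 1962, 1954 and 2275 normalized counts per kb of exon in controls 1 to 4, and 979, 1084 and 895 in ICI-myocarditis 1 to 3. Most of the gap lay in the ephrin-B genes, at 1352 ± 270 per kb in the 4 controls against 445 ± 48.0 in the 3 ICI-myocarditis libraries (mean ± SD). The ephrin-A genes summed to 746 ± 109 and 541 ± 50.4 per kb, also without overlap of the groups. Ephrin-B genes made up 55.2% to 72.5% of the family in controls and 43.5% to 46.1% in ICI-myocarditis. The share of Efna5 went the other way, from between 4.18% and 8.74% in controls to between 20.1% and 26.7% in ICI-myocarditis.

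**Figure D1:**
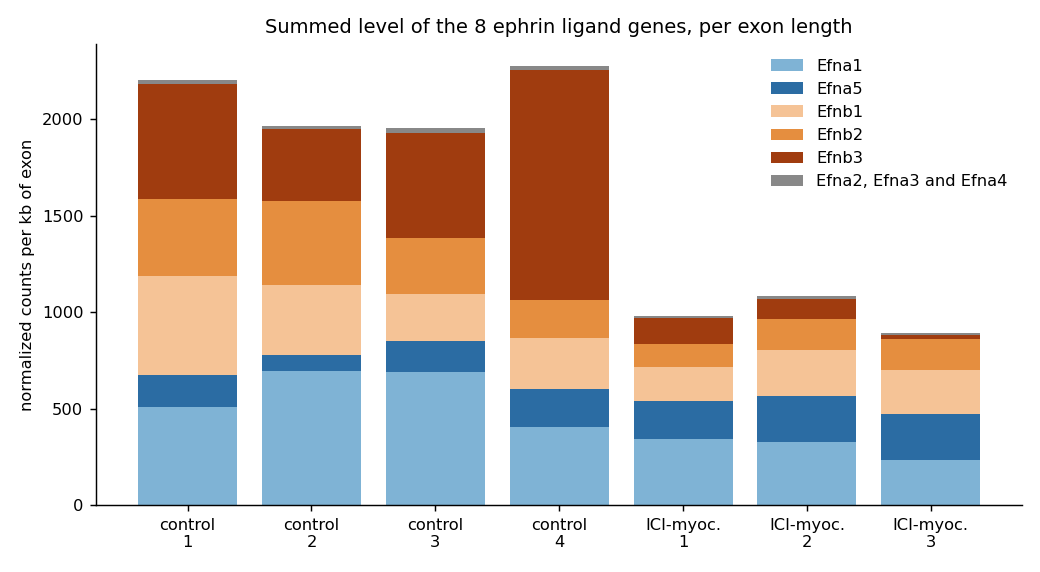
Stacked bars give the level of each ephrin ligand gene in normalized counts per kb of exon (vertical axis, from 0) for the 4 control and 3 ICI-myocarditis libraries. Bars of the controls reach 1954 to 2275 and those of ICI-myocarditis 895 to 1084, and the Efnb3 segment shrinks most.

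In controls the order of levels per kb of exon was Efnb3 (674 ± 355), Efna1 (575 ± 143), Efnb1 (346 ± 125), Efnb2 (332 ± 110) and Efna5 (151 ± 49.3), each as mean ± SD over 4 libraries. The first 4 of these did not differ from their neighbours beyond the spread, and Efnb3 came first in controls 1 and 4. Efna5 lay below Efnb2 by more than the SD of either, although in control 4 it was the higher of the pair (199 against 197 per kb). Efna2 (13.0 ± 3.76), Efna4 (5.63 ± 2.72) and Efna3 (mean 1.51) lay far below. In ICI-myocarditis Efna1 came first (302 ± 59.7, n = 3), followed by Efna5 (225 ± 24.9), Efnb1 (212 ± 33.3), Efnb2 (147 ± 24.1) and Efnb3 (85.5 ± 58.7). Exon length is the union of all annotated exons, so these levels shift if a tissue uses shorter transcripts.

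Efnb3 (ENSMUSG00000003934, chromosome 11, 69554092 to 69560205, minus strand, GRCm38) encodes ephrin-B3, known as a ligand of EphA4 and EphB receptors in the guidance of spinal cord axons. It had 1881, 1184, 1734 and 3780 normalized counts in controls 1 to 4 and 424, 329.7 and 63.4 in ICI-myocarditis 1 to 3. Every ICI-myocarditis library was below every control, and ICI-myocarditis 3, with 83 reads, was the lowest by far. The group means were 2145 ± 1130.5 (SD over 4 controls) against 272 ± 187 (SD over 3), a 7.88-fold ratio, and the log2 fold change was -3.23 (SE 0.627). Within groups Efnb3 was also the most variable of the 5 abundant ligand genes, with the highest library 3.19-fold above the lowest in controls and 6.59-fold in ICI-myocarditis. The fold change ranged from -3.74 without ICI-myocarditis 1 to -2.38 without ICI-myocarditis 3. The authors' deposited table gave -2.98 (SE 0.57) for the same contrast.

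Efnb2 (ENSMUSG00000001300, chromosome 8, 8617434 to 8661242, minus strand) encodes ephrin-B2, the arterial partner of EphB4. Its values were 2740.4, 3012, 2002 and 1350.0 normalized counts in controls and 821, 1101 and 1112 in ICI-myocarditis. The groups did not overlap, and control 4 was the lowest control. Means were 2276 ± 751 and 1011 ± 165, with a log2 fold change of -1.12 (SE 0.288). Efnb1 (ENSMUSG00000031217, chromosome X, 99136130 to 99148991, plus strand) encodes ephrin-B1, which has been described on the lateral membrane of cardiomyocytes. It stood at 1782, 1252, 832 and 916 normalized counts in controls and 599.6, 812 and 782 in ICI-myocarditis. All 3 ICI-myocarditis values lay under the lowest control, with control 3 nearest to them, and the log2 fold change was -0.65 (SE 0.279).

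Efna1 (ENSMUSG00000027954, chromosome 3, 89271733 to 89281142, minus strand) encodes ephrin-A1, which was first found as a gene induced by tumour necrosis factor in endothelial cells. It had 932, 1271, 1267 and 739 normalized counts in controls and 632, 599 and 429 in ICI-myocarditis. No ICI-myocarditis library reached the lowest control, and the log2 fold change was -0.91 (SE 0.251). Efna5 (ENSMUSG00000048915, chromosome 17, 62604184 to 62881317, minus strand) encodes ephrin-A5, known from the mapping of retinal axons. It had 659, 331, 644 and 802 normalized counts in controls and 793, 969 and 964 in ICI-myocarditis. Control 4 lay above ICI-myocarditis 1, so the groups overlapped, and the log2 fold change was 0.64 (SE 0.295). Efna5 was the abundant ligand gene with a positive fold change, which ranged from 0.37 without control 2 to 0.80 with scaling by library total.

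The other ephrin-A genes were scarce. Efna2 had 33.3, 16.0, 29.0 and 32.5 normalized counts in controls and 12.3, 18.8 and 11.5 in ICI-myocarditis, with overlap through control 2 and a log2 fold change of -0.90 (SE 0.422). Efna4 had 11.1, 2.47, 11.2 and 11.3 in controls and 5.12, 11.6 and 9.17 in ICI-myocarditis. Its log2 fold change of 0.05 (SE 0.605) had no stable sign. Efna3 did not pass the filter of at least 10 normalized counts in 3 libraries and had 0 to 6 reads per library. Control 4 had 0 Efna3 reads, which allows up to 3.75 normalized counts, counting error only. Efna1, Efna3 and Efna4 lie within 66.3 kb of chromosome 3 (89271733 to 89338028, GRCm38) with no other protein-coding gene wholly inside that span. In controls these neighbours differed in level, at 575, 1.51 and 5.63 normalized counts per kb. Antisense genes overlap Efna3 and Efna4 in the annotation, and the use of strand in counting is not given in the sources used here.

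**Figure D2:**
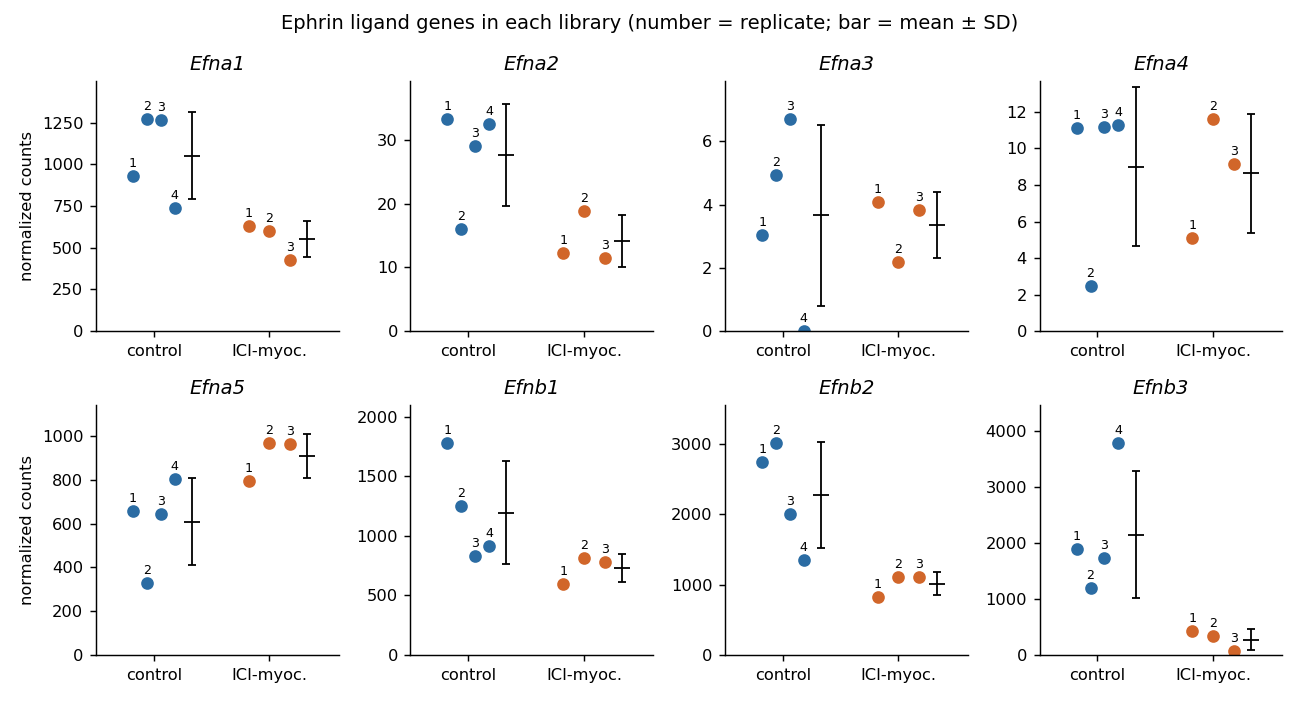
Each panel shows 1 ephrin ligand gene in normalized counts (vertical axis, from 0), with 1 point per library, its replicate number above it and the mean ± SD beside each group. Efnb1, Efnb2, Efnb3 and Efna1 have all 3 ICI-myocarditis points under the 4 control points, and Efna5 has its lowest point in control 2.

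Across all 15258 genes tested with limma, 15.7% passed an adjusted p of 0.05, 4.00% of genes as lower and 11.7% as higher in ICI-myocarditis. Of the 7 ligand genes that passed the filter, 3 (Efna1, Efnb2 and Efnb3) were past that threshold, all lower. Since the family was chosen with this contrast known, nothing is read from that count. In 4 ligand genes all ICI-myocarditis libraries were below all controls, an arrangement found for 11.3% of genes tested, while 28.6% had groups without overlap in either direction. The median log2 fold change was -0.90 over the 7 ligand genes and -0.02 over all genes tested.

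The 250 bases before the start of 3 ligand genes are shown for Efna5, the abundant ligand gene with a positive fold change, beside Efnb2 and Efnb1, which had negative ones. They come from RefSeq (GRCm38.p6), which held such a window for 7 of the 8 ligand genes. Efnb3 had no entry. The windows are chr8:8661243-8661492 (minus strand) for Efnb2, chrX:99135811-99136060 (plus strand) for Efnb1 and chr17:62881318-62881567 (minus strand) for Efna5. Capitals mark matches, on either strand, to GGGCGG (the SP and KLF family) and TGGGAA (RBPJ, the DNA-binding partner of Notch). They also mark matches to CCGGAAG (ETS factors) and to a loose NF-kappaB pattern. That pattern fixes only its ends and allows any base between them, so a match need not fit a stricter form of the motif.
Efnb2: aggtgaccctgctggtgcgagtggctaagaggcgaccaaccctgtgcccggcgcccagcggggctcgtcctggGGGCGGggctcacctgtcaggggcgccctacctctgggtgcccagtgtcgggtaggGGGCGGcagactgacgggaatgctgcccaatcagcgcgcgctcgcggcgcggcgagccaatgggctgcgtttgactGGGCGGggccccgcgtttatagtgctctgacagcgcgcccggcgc
Efnb1: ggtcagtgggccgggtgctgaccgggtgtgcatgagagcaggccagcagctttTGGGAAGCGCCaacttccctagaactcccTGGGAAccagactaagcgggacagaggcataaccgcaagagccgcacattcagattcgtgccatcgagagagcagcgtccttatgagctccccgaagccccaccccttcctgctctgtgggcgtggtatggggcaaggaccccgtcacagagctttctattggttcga
Efna5: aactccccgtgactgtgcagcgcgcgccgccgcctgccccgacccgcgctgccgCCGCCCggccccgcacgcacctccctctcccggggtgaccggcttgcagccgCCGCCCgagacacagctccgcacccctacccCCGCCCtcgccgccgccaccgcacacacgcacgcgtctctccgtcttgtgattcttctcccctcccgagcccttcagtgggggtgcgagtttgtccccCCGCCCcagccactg
Efnb2 held 3 matches to GGGCGG and Efna5 held 4, against a share of 32.7% of all 32851 such windows with at least 1. Efnb1 held 0 of these, but 2 matches to TGGGAA, a motif found in 21.6% of windows. It also held 1 match to the loose NF-kappaB pattern, found in 17.6%. That match overlaps 1 of the TGGGAA matches of Efnb1. CCGGAAG, found in 6.91% of windows, was in none of the 3. The data hold no measurement of binding at these windows, and a match here is a description of letters.

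Levels of the ligand genes were set against markers of the cell types that could carry them. Of 12 endothelial genes, 5 fell (Cldn5, Emcn, Erg, Kdr and Tek) and 0 rose in ICI-myocarditis at a limma adjusted p under 0.05, where 4.00% of all genes were called lower, and none was at 0. Their sum was 39354 to 99872 normalized counts in controls and 29545 to 37984 in ICI-myocarditis. Of 10 cardiomyocyte genes, 0 passed (limma, 2 of the 10 at an unadjusted p under 0.05), and all 10 had negative fold changes. Their sums of 2512493 to 5061911 in controls and 1924906 to 3030073 in ICI-myocarditis overlapped. Of 7 mural cell genes, 4 fell (Abcc9, Kcnj8, Myh11 and Rgs5) against the same 4.00%, and the sums were 52628 to 72698 and 23920 to 35000.

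Efnb2 lay at a similar distance from the endothelial genes in both groups. Its log2 level minus the mean log2 level of that list was -0.89, -1.01, -1.06 and -0.93 in controls and -1.22, -1.10 and -0.96 in ICI-myocarditis. The groups overlapped on this relative scale, and the mean difference between them was -0.12, against -1.12 before the subtraction. Efna1 on the same scale differed by 0.09 between groups, again with overlap, at -2.05 ± 0.351 in controls and -1.97 ± 0.372 in ICI-myocarditis. Small mean differences were not particular to the endothelial list. Relative to the mural cell and cardiomyocyte lists Efnb2 differed by -0.17 and -0.35 and Efna1 by 0.04 and -0.14, all with overlap. The spread of Efnb2 was narrower relative to the endothelial list, with an SD over controls of 0.074. Against the mural cell and cardiomyocyte lists that SD was 0.480 and 0.961. For Efna1 the SDs were 0.351, 0.454 and 0.840 in the same order. Efnb1, at -0.65 before the subtraction, differed by 0.34, 0.29 and 0.11 relative to these lists in that order, all with overlap. Its SDs over controls were 0.460, 0.383 and 0.764. Efnb3 showed no such small mean difference. Relative to the cardiomyocyte list it lay at -6.88, -6.66, -6.82 and -6.17 in controls and at -8.21, -8.75 and -10.3 in ICI-myocarditis. All 3 ICI-myocarditis libraries thus remained below all controls after the subtraction, with a mean difference of -2.46 log2 units. Relative to the mural cell list Efnb3 differed by -2.28, also without overlap, and relative to the endothelial list by -2.23, with overlap through control 2.

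Efna5 differed from these other ligand genes. In controls it kept a narrow distance from the cardiomyocyte list, at -8.38 ± 0.105 (mean ± SD), whereas the ICI-myocarditis libraries lay higher, at -6.97 ± 0.482, without overlap. Relative to the endothelial list its mean difference was 1.64 log2 units, again without overlap. The gap there was narrower, with control 4 at -1.68 and ICI-myocarditis 2 at -1.28. Of 7 fibroblast genes, 2 rose (Col1a1 and Col1a2), 0 fell and 5 did not pass, against 11.7% of all genes higher. The sum of the 7 was 36369 to 54977 normalized counts in controls and 65158 to 127372 in ICI-myocarditis, most of it from both collagen genes in ICI-myocarditis, while Dcn, at 8596 to 22998 and 11574 to 19910, overlapped. All 6 T cell genes with a row rose, as did 6 of 7 macrophage genes. The T cell sum was 101 to 163 in controls 1, 3 and 4, 1308 in control 2 and 5926 to 9054 in ICI-myocarditis. The part of these cell types in the ligand values was not tested.

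**Figure D3:**
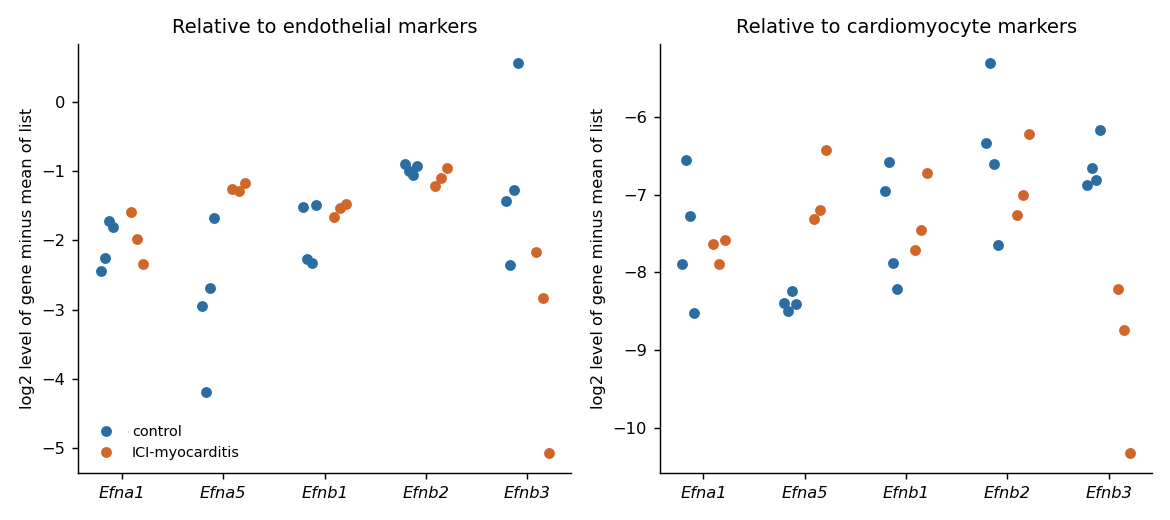
Points give, for 5 ligand genes and each library, the log2 level of the gene minus the mean log2 level of 12 endothelial genes (left) or 10 cardiomyocyte genes (right), with controls and ICI-myocarditis in separate colours. Efnb2 stays between -1.22 and -0.89 on the left in both groups, and Efnb3 is lower in all 3 ICI-myocarditis libraries on the right.

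The controls also varied among themselves in a way that crossed the family. Control 2 had the lowest Efnb3, Efna5 and Efna2 of the controls and the highest Efnb2 and Efna1, together with the highest endothelial and the lowest cardiomyocyte sum. Control 4 had the highest Efnb3 and Efna5 and the lowest Efnb2 and Efna1, with the lowest endothelial and the highest cardiomyocyte sum. Not every ligand gene followed this. Efnb1 was highest in control 1 (1782) and lowest in control 3 (832), and Efna2 was highest in control 1 (33.3). Efna1 was nearly level in controls 2 and 3 (1271 and 1267). The ratio of Efnb3 to Efnb2, both per kb, accordingly ran from 0.847 in control 2 to 6.03 in control 4, and from 0.123 to 1.11 in ICI-myocarditis.

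Likeness of pattern was measured as the root mean square (RMS) difference of log2 values over the 7 libraries, after centring each gene on its own mean, among 11468 or 11469 genes with a mean of at least 100 normalized counts. The 3 genes closest to Efnb3 were Slc22a3 (0.32), which encodes an organic cation transporter, Mylk4 (0.47), a myosin light chain kinase gene, and Kcnv2 (0.48), a potassium channel subunit gene, where the median over all genes was 1.83. Slc22a3 had 249, 139, 247 and 368 normalized counts in controls and 51.2, 64.5 and 5.35 in ICI-myocarditis, the lowest in ICI-myocarditis 3 as for Efnb3. Closest to Efnb2 were She (0.10), Rnf144a (0.10) and Prickle2 (0.11). Closest to Efna1 were Yes1 (0.13), a kinase gene of the Src family, Fzd6 (0.14) and Eva1a (0.14). Efna5 was closest to Ehd4 (0.11), Tmed10 (0.13) and Slc38a1 (0.15), and Efnb1 to Daam2 (0.12), Dab2ip (0.12) and Ptrf (0.13). Efna2 was closest to Mmab (0.10), Kif21a (0.11) and Prox1 (0.12). The genes closest to the scarce Efna4 were Acta1 (0.31), Ubl7 (0.32) and Ddah1 (0.33). Medians over all genes were 0.59 to 0.76 for the ligand genes other than Efnb3. These values describe 7 libraries in 2 groups, and many genes share a difference between the groups.

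**Figure D4:**
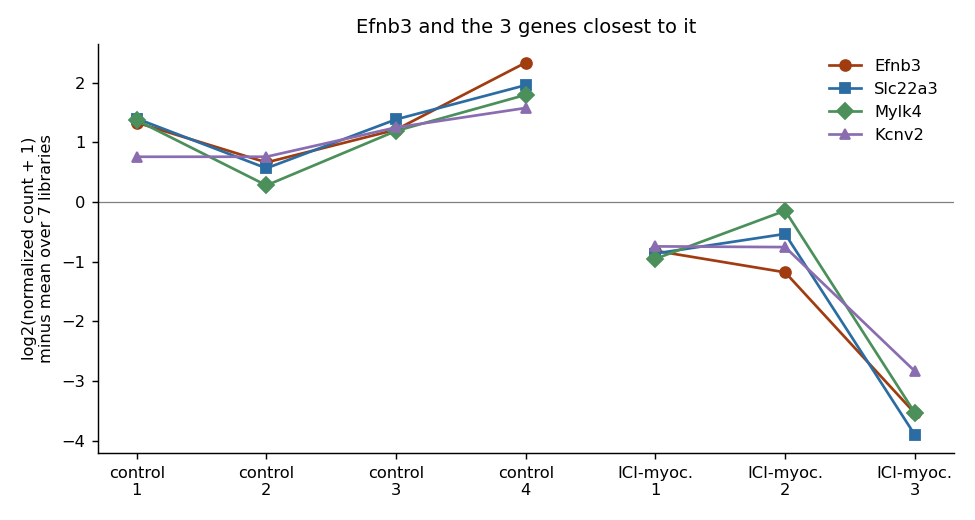
Lines give log2(normalized count + 1) minus its mean over the 7 libraries (vertical axis) for Efnb3 and the 3 genes with the smallest RMS difference from it, by library. All 4 genes lie above 0 in the controls, lowest in control 2 or level with control 1, and reach their lowest point in ICI-myocarditis 3.

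The Eph receptor genes, which were not part of the rule, were tested in the same limma fit. Of 14, 10 passed the filter, and 3 of these fell, 0 rose and 7 did not pass, where 4.00% of all genes tested were called lower and 11.7% higher, with a median log2 fold change of -0.36. Epha4 encodes a receptor that binds both ephrin classes, ephrin-B3 included. It fell from 2492, 1746, 2145 and 1895 normalized counts in controls to 578, 579 and 327 in ICI-myocarditis. All ICI-myocarditis libraries were far below all controls, and the log2 difference of -2.10 (SE 0.248) had an adjusted p = 0.00285 by limma and passed in 18 of 18 alternatives. Relative to the cardiomyocyte list the mean difference of Epha4 was -1.33 log2 units, without overlap, and relative to the endothelial list it was -1.10, with overlap. Relative to the mural cell list it was -1.15, without overlap. The SD over controls was 0.065 there, against 0.441 and 0.555 for the cardiomyocyte and endothelial lists.

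Ephb1 fell from 460, 542, 326 and 294 normalized counts in controls to 129, 244 and 104 in ICI-myocarditis (-1.40 ± 0.342 SE on the log2 scale, adjusted p = 0.0249 by limma). Ephb3 fell from 669, 439, 444 and 713 to 307, 334 and 238 (-0.93 ± 0.250 SE on the log2 scale, adjusted p = 0.0356 by limma). Both calls were weaker than that of Epha4. Ephb1 passed in 13 of 18 alternatives (limma adjusted p up to 0.101) and was lost with scaling by library total (0.0742) and without control 1, control 3, ICI-myocarditis 1 or ICI-myocarditis 3. Ephb3 passed in 11 of 18 (up to 0.144) and was lost without control 1, control 3, control 4 or any 1 ICI-myocarditis library, and with the replicate number as a block (0.126).

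Ephb4, the venous partner of ephrin-B2, was the most abundant receptor gene, at 1036 ± 254 normalized counts per kb in controls and 649.8 ± 57.8 in ICI-myocarditis. Its 3 ICI-myocarditis values, 2711, 3218 and 3115 normalized counts, lay under the 4 control values, 5998, 5545, 4262 and 3431. The log2 fold change of -0.64 (± 0.239 SE, adjusted p = 0.104 by limma) did not pass. Ephb6, which lacks kinase activity, had 75.6, 56.7, 68.1 and 45.0 normalized counts in controls and 102, 118 and 269 in ICI-myocarditis (1.28 ± 0.387 SE on the log2 scale, adjusted p = 0.0531 by limma). Ephb2 at 1.59 (limma adjusted p = 0.0923), Epha3 at 1.12 (0.166), Epha2 at -0.49 (0.380), Epha7 at -0.24 (0.502) and Epha1 at -0.01 (0.986) did not pass either. In the 18 alternatives Ephb6 passed in 4 and Ephb2 in 3, both as higher, and Ephb4 passed in 3, as lower. Epha1 overlaps Zyx on the other strand. Epha6, Epha8 and Epha10 had at most 8.63 normalized counts in any library, and Epha5 was listed at 0 in all 7.

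**Figure D5:**
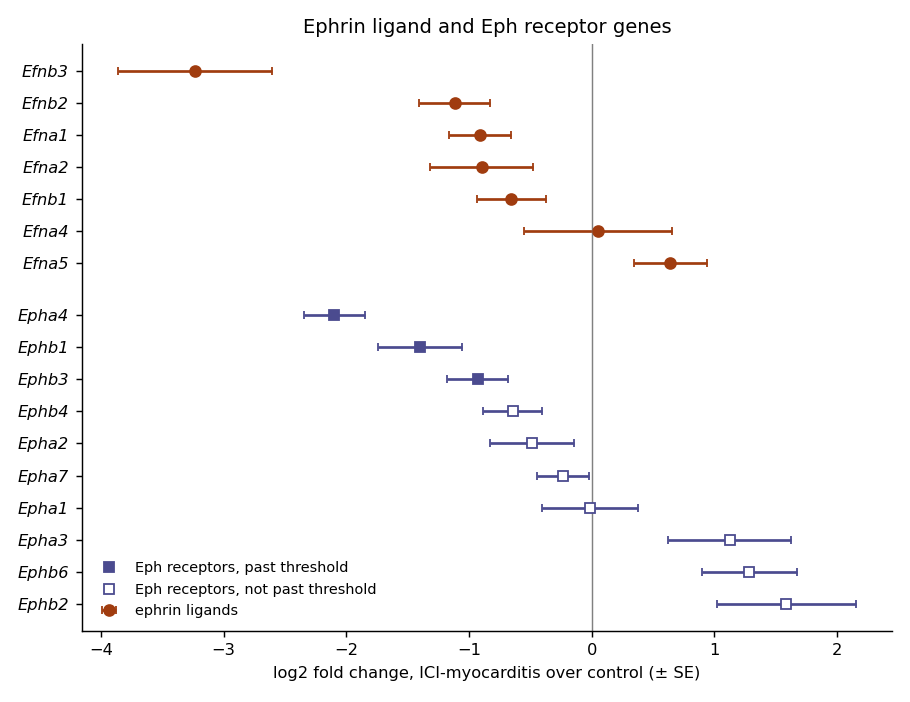
Points give the limma log2 fold change (ICI-myocarditis over control) ± SE for the 7 ephrin ligand genes (circles) and 10 Eph receptor genes (squares) that passed the filter. Filled squares, Epha4, Ephb1 and Ephb3, passed the adjusted threshold, and circles carry no test.

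Genes for proteins that act with ephrins and Eph receptors split in direction. Of 27 such genes, 5 rose (Ngef, Ptpn13, Sdcbp, Src and Tiam1), 3 fell (Arhgef15, Nck1 and Yes1) and 19 did not pass, where 11.7% of all genes tested were called higher and 4.00% lower. The median log2 fold change was 0.06. Ngef, which encodes ephexin, an exchange factor that works downstream of EphA4, rose from 14.3 ± 3.02 to 89.7 ± 23.4 normalized counts (2.56 ± 0.361 SE on the log2 scale, adjusted p = 0.00376 by limma), higher in 3 of 3 libraries than in any control and past the threshold in 18 of 18 alternatives. Ptpn13, a phosphatase gene whose product binds ephrin-B tails, rose by 1.09 (± 0.238 SE, adjusted p = 0.0156 by limma), in 14 of 18. Without control 3, ICI-myocarditis 2 or ICI-myocarditis 3, 1 of the 27 genes, Ngef, passed. With the replicate number as a block 2 passed, Arhgef15 and Ngef.

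Of 13 Notch and arterial genes, the setting in which ephrin-B2 is best known, 1 fell, 1 rose and 11 did not pass, a share near the 15.7% of all genes called and so no result about the list. The median log2 fold change was -0.30. Hey1, a Notch target, fell from 694 ± 251 to 228 ± 37.9 normalized counts (-1.54 ± 0.305 SE on the log2 scale, adjusted p = 0.0106 by limma), past the threshold in 18 of 18 alternatives. Rbpj rose from 1478 ± 141 to 2837 ± 735 (0.91 ± 0.216 SE on the log2 scale, adjusted p = 0.0218 by limma), in 13 of 18, and was lost without control 1, control 3, ICI-myocarditis 2 or ICI-myocarditis 3. With the replicate number as a block 3 genes passed, all lower.

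Of 10 genes that cytokines switch on in endothelium, the class in which Efna1 was found, 8 rose, 0 fell and 2 did not pass, where 11.7% of all genes tested were called higher. The median log2 fold change was 1.69. Tnfaip2 rose by 1.26 (± 0.212 SE, adjusted p = 0.00597 by limma) and Tnfaip3 by 2.10 (± 0.391 SE, adjusted p = 0.00866 by limma), both in 18 of 18 alternatives. Efna1, at -0.91, had the opposite sign to these, as did Sele of the same list, at -0.59 (adjusted p = 0.265 by limma). Several of the 10 genes are also expressed by leukocytes, whose markers were higher in the same libraries, and their part in these values was not tested.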

How the data were processed

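Total RNA from cardiac ventricle was sequenced as paired-end reads of 150 bases from a stranded library kit, per the labels' protocols. The submitters' processing notes name STAR 2.7.3 and the builds GRCm38 and mm10. The counting program, annotation and use of strand are not given in the sources used here. The per-library values the authors deposited are a signal: reads counted per gene, scaled in each library by a single size factor, as the values show. Per the file headers the table also holds the authors' log2 fold change and standard error, their test statistic as a score, and p-values with adjusted p-values. Every library column was within 0.01 of whole multiples of 1 step, so reads were recovered. The step of control 1, 1.01, is so close to 1 that this is a weaker sign there.

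The principal test was limma 3.58.1 (R 4.3.3) with trend and robust variance on log2(normalized count + 1), all 7 libraries, a filter of 10 or more normalized counts in 3 or more libraries, and Benjamini-Hochberg adjustment over all genes tested with a threshold of 0.05. Fold changes are on that log2 scale, which understates changes of low genes. edgeR 4.0.16 and DESeq2 1.42.0 on recovered reads were alternatives, as were other pseudocounts (0.5, 5), filters, scalings, variance settings, a replicate block and leaving out each library. The test was checked on simulated counts with as many genes raised as lowered and no library lying between the groups. These data differ from that setting in both respects, so nothing about them is concluded from the check. Exon lengths, coordinates and overlaps come from GENCODE M21 (GRCm38), promoters from RefSeq. Rows with names turned into dates numbered 27. The T cell gene Trac had no row, and Adgre1 was read from the row Emr1.

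Members and lists were chosen with earlier results of these data known. Named genes are all ligands and receptors, the 2 members of other lists with the lowest p where a value is given, and the 3 nearest patterns of each tested ligand. Other genes are named only as part of a count, except atrial genes, Pdcd1 and Ctla4, read as a check, and Dcn and Sele, chosen after their values were seen. The labels name no molecular identifiers, so reads are not independent molecules and limits from a count of 0 cover counting error only.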

Additional observations from a re-analysis of the deposited data

Results flagged for a closer look

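Levels of single genes and summed levels of the gene lists, 57 in all, were examined over the 4 controls. Of these, 2 had an outlying library by Dixon's criterion, which compares the gap to the nearest library with the whole range of log2 values. By chance about 1 in 20 such groups would meet it. The sums share genes with the single levels, so the 57 are not independent. Efna4 was low in control 2, with 2 reads there and 9 to 11 in the other controls, and the gap was 0.989 of the range. Cd3g, a T cell gene, was high in control 2, with a gap of 0.841 of the range.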

How the results depend on the processing

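All 18 alternatives gave values, except that Efna2, Efna4, Epha3 and Tnnt3 did not pass the filter of 50 normalized counts, which left 26 partner and 9 cytokine-activated endothelial genes tested. The sign of the log2 fold change held in every alternative for Efna1, Efna2, Efna5, Efnb1, Efnb2 and Efnb3, and it turned in 6 of 17 for Efna4. Scaling by library total moved the median over all genes from -0.02 to 0.14, and with it 1 ligand gene was past the threshold, 5 partner genes passed, and the fold changes of Epha1 (0.14) and Myl4 (0.019) changed sign. limma-voom with quality weights called 4003 genes in place of 2397, and it and DESeq2 each called 6 Eph receptors, 4 lower and 2 higher (Ephb2 and Ephb6). Without a filter on low values 5 partner genes passed. Leaving out 1 library at a time gave 986 to 3340 called genes, 1 to 3 ligand genes, 1 to 3 Eph receptors, 1 to 7 partner genes, 1 to 3 Notch and arterial genes, 5 to 8 cytokine-activated endothelial genes, and -0.35 to 0.27 for Epha1. These fits test fewer samples. The cause of the other shifts was not tested.

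Replicate numbers in the labels are shared between the groups, but the deviations of same-numbered libraries correlated at -0.27, -0.21 and -0.08. Libraries with different numbers correlated at -0.48 to 0.45. No pairing by number was seen, but so few correlations of deviations centred within each group cannot exclude it. With a replicate block 1780 genes, 3 ligand genes, 2 Eph receptors, 2 partner genes, 3 Notch and arterial genes and 6 cytokine-activated endothelial genes passed. Depth limits Efna2, Efna3 and Efna4, with at most 33 reads in any library.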
